A study of Homo sapiens with 16 samples.

Results

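The 47 genes described here encode the machinery of G2 and mitosis. They were chosen by name from their known roles, with earlier results of these data known. They comprise 6 mitotic cyclins, CDK1 and CDC25 phosphatases, 7 other mitotic kinases, the transcription factor FOXM1, and 7 kinetochore and centromere proteins. Also included are 8 kinesins, 7 spindle microtubule proteins, and 5 genes of anaphase and the anaphase-promoting complex, CDCA3 among them. The others are 4 genes of cytokinesis and chromosomal passengers, and the pair TOP2A and MKI67. All 47 were rows of both count tables, which list 26364 genes each. Every member passed the filter on low counts in both cell lines, with 619 to 47466 counts per library in Ishikawa cells and 213 to 39017 in T-47D cells. The question was whether this mitotic programme moves within 8 h of estrogen.

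Bulk RNA-seq was available for 2 estrogen-responsive human cancer lines, Ishikawa from an endometrial adenocarcinoma and T-47D from a breast carcinoma. By the sample labels, both lines were kept for 3 days in phenol-red-free RPMI with charcoal-stripped serum, which removes most steroid hormone, and then received 10 nM 17β-estradiol (E2) for 0, 2, 4 or 8 h. The study's methods give a longer time in hormone-depleted medium, and the labels' time is printed here. The 0 h cells had vehicle alone, and all groups shared the hormone-deprived medium. There were 2 libraries for each of the 8 combinations of line and time, made from poly(A) RNA. Each line is a single established cancer line, so the contrasts describe 2 lines and not breast or endometrial tissue in general. The labels do not say that replicates came from separate cultures, so p-values measure the spread between these samples, which may be technical. Libraries held 41177912 to 58918642 counts in Ishikawa cells and 41223813 to 64148903 in T-47D cells. The breast marker GATA3 stood at 991 to 1204 CPM (counts scaled to a common library size) in T-47D cells and at no more than 0.0913 CPM in Ishikawa cells, and PAX8 stood at 194 to 328 CPM in Ishikawa cells and at no more than 0.0485 CPM in T-47D cells. Of 8 markers of stromal, endothelial and immune cells, 3 were tested in T-47D cells and all 3 fell by 8 h (DCN, LUM and COL1A1), and the summed level of the 8 was 91.6 to 99.8 CPM before E2 and 75.7 to 81.4 CPM after 8 h. In Ishikawa cells, 2 were tested, COL1A1 fell, and the sum went from 252 to 278 CPM down to 166 to 185 CPM. Nearly all of these sums was COL1A1, while the immune marker PTPRC never exceeded 0.141 CPM. The part of these markers in the results was not tested. The E2 target GREB1 rose from 8.64 and 9.42 CPM at 0 h to 24.8 and 32.0 CPM at 8 h in Ishikawa cells, and from 112 and 122 CPM to 515 and 522 CPM in T-47D cells. The Ishikawa libraries labelled 4 h and 8 h could barely be separated, since only 2 of the 15787 genes tested passed between them. A contrast of all 4 late Ishikawa libraries against 0 h is therefore given beside the contrasts by label.

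Entry into mitosis is driven by CDK1 bound to A- and B-type cyclins and is opened by the CDC25 phosphatases. The spindle then forms with the help of kinesins and microtubule-binding proteins, kinetochores attach chromosomes to it, the checkpoint kinases hold anaphase until attachment is complete, and CDC20 and the anaphase-promoting complex release it. Most of these genes are silent in G0 and G1, when the DREAM complex binds a short promoter element called the CHR, and are switched on in G2 by MYBL2, FOXM1 and NF-Y. Estrogen is known in breast cancer cells for moving hormone-deprived cells from G1 into S phase, which precedes the transcription of mitotic genes.

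Promoters are shown first. Members were chosen by role and not by promoter letters. Since the CHR and NF-Y are known for genes of this role, the shares below are a description and no independent result. RefSeq gave a promoter of 300 bases, from 250 before to 50 after a transcription start on GRCh38.p14, for 41 of the 47 members and 51 starts. AURKA, TTK, FOXM1, TPX2, UBE2C and BIRC5 had no entry. The letters TTTGAA of the CHR, searched on both strands, were present in 62.7% of the 51 member promoters and in 15.2% of all 35116 promoters. By gene, 25 of 41 members (61.0%) held TTTGAA within 50 bases of a start, against 5.77% of 27305 genes. The letters CCAAT, which NF-Y binds, were present on either strand in 74.5% of member promoters and 34.6% of all promoters. The E2F letters TTTCCCGC, TTTGGCGC or TTTCGCGC were present in 9.80% and 2.74%. The full estrogen response element, GGTCA and TGACC separated by 3 bases, was in none of the 51 windows and in 0.057% of all promoters. A match is a description of the letters and not a binding site, and estrogen receptor bound elsewhere than in these windows was not examined.

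The 6 promoters printed here belong to members on which the results below turn, namely ANLN, BUB1B and CDC20, which rose in T-47D cells, and ESPL1, SPC24 and CDC25B, which fell in Ishikawa cells. Sequences are given 5′ to 3′ on the gene's own strand, with TTTGAA and CCAAT or their reverse complements TTCAAA and ATTGG in capitals. They lie on GRCh38.p14 at chr7:36389612-36389911 (plus strand), chr15:40160819-40161118 (plus), chr1:43358731-43359030 (plus), chr12:53268049-53268348 (plus), chr19:11155733-11156032 (minus) and chr20:3796060-3796359 (plus), in that order. On GRCh37, the genes span chromosome 7, 36429430 to 36493400 (ANLN), chromosome 15, 40453224 to 40513324 (BUB1B), chromosome 1, 43824652 to 43828874 (CDC20), chromosome 12, 53662083 to 53687422 (ESPL1), chromosome 19, 11242196 to 11266483 (SPC24) and chromosome 20, 3767419 to 3786768 (CDC25B). CDC25B has 4 RefSeq starts, and the window whose start coincides with an annotated transcript and holds CCAAT is shown.
ANLN: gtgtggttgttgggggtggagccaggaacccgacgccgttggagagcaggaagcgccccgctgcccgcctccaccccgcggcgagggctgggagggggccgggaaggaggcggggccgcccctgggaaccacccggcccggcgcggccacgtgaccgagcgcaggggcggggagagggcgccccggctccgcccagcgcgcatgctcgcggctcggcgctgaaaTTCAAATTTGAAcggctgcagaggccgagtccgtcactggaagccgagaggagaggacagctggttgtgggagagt
BUB1B: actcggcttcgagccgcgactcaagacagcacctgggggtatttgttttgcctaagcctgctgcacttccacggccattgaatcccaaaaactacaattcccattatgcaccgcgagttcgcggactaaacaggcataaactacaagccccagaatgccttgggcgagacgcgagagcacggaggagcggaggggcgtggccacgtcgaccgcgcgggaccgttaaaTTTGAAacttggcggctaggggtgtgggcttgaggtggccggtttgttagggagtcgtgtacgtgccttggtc
CDC20: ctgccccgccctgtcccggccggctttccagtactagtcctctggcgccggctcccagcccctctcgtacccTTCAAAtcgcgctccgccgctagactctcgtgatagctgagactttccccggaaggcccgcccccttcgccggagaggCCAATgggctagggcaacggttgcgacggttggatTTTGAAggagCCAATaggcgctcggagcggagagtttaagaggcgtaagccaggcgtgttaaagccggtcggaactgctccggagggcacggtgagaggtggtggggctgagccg
ESPL1: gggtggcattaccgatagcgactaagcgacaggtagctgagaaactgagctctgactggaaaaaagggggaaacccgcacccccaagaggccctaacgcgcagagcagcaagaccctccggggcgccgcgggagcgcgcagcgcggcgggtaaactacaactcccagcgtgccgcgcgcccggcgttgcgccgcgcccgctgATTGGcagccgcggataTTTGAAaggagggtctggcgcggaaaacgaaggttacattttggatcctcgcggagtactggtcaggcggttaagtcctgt
SPC24: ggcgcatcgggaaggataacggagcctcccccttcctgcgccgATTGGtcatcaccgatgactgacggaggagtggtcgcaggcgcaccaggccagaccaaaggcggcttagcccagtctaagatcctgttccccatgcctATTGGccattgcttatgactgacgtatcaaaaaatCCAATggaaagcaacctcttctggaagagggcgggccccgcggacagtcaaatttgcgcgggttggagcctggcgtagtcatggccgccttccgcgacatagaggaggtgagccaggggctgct
CDC25B: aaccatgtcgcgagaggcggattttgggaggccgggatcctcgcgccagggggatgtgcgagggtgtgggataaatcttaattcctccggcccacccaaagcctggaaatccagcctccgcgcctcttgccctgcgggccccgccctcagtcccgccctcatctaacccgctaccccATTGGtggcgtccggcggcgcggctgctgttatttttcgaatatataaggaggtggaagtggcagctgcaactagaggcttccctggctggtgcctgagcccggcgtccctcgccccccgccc
In ANLN, the 2 CHR matches adjoin each other on opposite strands and begin 26 and 20 bases before the start. In BUB1B, 1 match begins at position -23, and in ESPL1, 1 begins at -31. CDC20 holds matches at -178 and -65 and 2 CCAAT matches. SPC24 and CDC25B hold no TTTGAA in the window, whereas SPC24 holds 3 CCAAT matches.

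Before E2, mitotic genes were mostly lower in T-47D than in Ishikawa cells. Summed over the members, 7695 and 7259 CPM were measured in the 2 Ishikawa libraries at 0 h and 5502 and 5316 CPM in the T-47D libraries. In the joint fit of 16 libraries, 34 members were lower and 8 were higher in T-47D cells by the quasi-likelihood test of edgeR, with adjusted p-values, where 42.4% of 17090 genes were lower and 39.5% higher. The median log2 difference was -0.67 over the members and -0.05 over all genes. In bulk RNA, fewer cells in G2 or mitosis and less RNA of these genes per cell cannot be told apart.

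The largest baseline difference was in CDCA3, which promotes mitotic entry. It stood at 43.0 and 46.0 CPM in Ishikawa cells and at 11.4 and 11.3 CPM in T-47D cells, a log2 difference of -1.90 ± 0.09 (SE). SPC24, a subunit of the NDC80 kinetochore complex, stood at 18.3 and 18.1 CPM against 5.78 and 5.16 CPM. CDC20, the activator of the anaphase-promoting complex, stood at 214 and 214 CPM against 69.8 and 69.9 CPM, a log2 difference of -1.55 ± 0.06 (SE). MKI67, the gene of the Ki-67 proliferation antigen, stood at 887 and 923 CPM against 298 and 334 CPM, a log2 difference of -1.45 ± 0.05 (SE). None of these 4 overlapped between the lines, but the share of all genes without overlap was not counted. Between the lines at 0 h, 81.9% of 17090 genes were called in either direction.

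The 8 members higher in T-47D cells included HMMR, a spindle-associated hyaluronan receptor, at 80.7 and 68.0 CPM against 40.9 and 31.7 CPM (log2 difference 1.10 ± 0.11, SE). ECT2, the exchange factor that activates RhoA for cytokinesis, differed by 0.71 ± 0.07 on the log2 scale, and the spindle kinase AURKA by 0.63 ± 0.06. ASPM, which organises spindle poles, differed by 0.52 ± 0.06. CDK1, ANLN, TOP2A and NEK2 were also higher. TPX2, NUSAP1, CENPF, UBE2C and ESPL1 did not pass the test. The 95% interval for TPX2 ran from -0.17 to 0.05 on the log2 scale and that for CENPF from -0.00 to 0.20.

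Per kilobase of exon, the order of the members was broadly alike in both lines, with a Spearman correlation of 0.82 over the 47 genes, which share libraries and exon lengths and are not independent. In Ishikawa cells, CCNB1, the cyclin B1 gene, was the most abundant at 121 ± 3.55 CPM per kb (SD, n = 2), followed by CDC20 at 106 ± 0.0862. In T-47D cells, TOP2A, the DNA topoisomerase that untangles sister chromatids, came first at 90.7 ± 3.02 CPM per kb, followed by the spindle assembly factor TPX2 at 73.3 ± 0.288 and CCNB1 at 71.5 ± 0.575. CDC20 had rank 10 among the 47 in T-47D cells, at 34.7 CPM per kb. SPC24 was the least abundant in both, at 6.40 and 1.93 CPM per kb. Of the 46 pairs of neighbours in this order, 37 overlapped in the 0 h libraries of Ishikawa cells, as did 24 of those in T-47D cells, so much of the fine order lies within the spread.

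**Figure D1:**
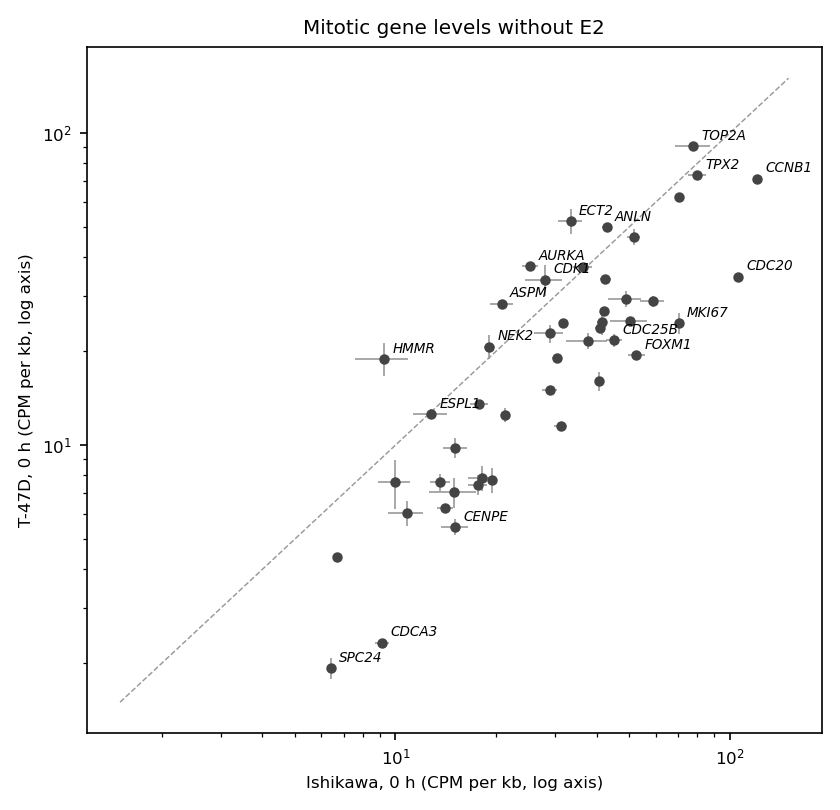
Mean level of each of the 47 genes at 0 h in Ishikawa cells (x axis) and T-47D cells (y axis), in CPM per kb of exon on log axes, with bars of 1 SD over 2 libraries and a dashed line of equality. Most points lie below the line, CDC20, CDCA3 and SPC24 far below it, and HMMR, ECT2 and AURKA lie above it.

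In T-47D cells, no member passed the test at 2 h, 3 were higher and 1 was lower at 4 h, and 19 of 47 were higher at 8 h, by small amounts. The members were tested one by one, and no test was made of the set as a whole. At 8 h, 42 of 47 members had a positive log2 fold change, with a median of 0.14 and a range of -0.09 to 0.34, while the median over all genes was 0.00. No member was lower. The summed member level was 5502 and 5316 CPM before E2, 5368 and 5422 after 2 h, 5639 and 5607 after 4 h, and 5711 and 6053 after 8 h. Both 4 h and both 8 h libraries lay above both 0 h libraries, and the 2 h libraries lay between them.

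At 2 h, edgeR called 0 members, against 9.30% of 15594 genes in either direction. At an unadjusted p of 0.05, 1 member was higher and 4 were lower, and DESeq2 also called 0. At 4 h, 3 members were higher and 1 was lower, or 6.38% and 2.13% of the members, against 11.1% and 10.4% of all genes. At 8 h, 19 of 47 (40.4%) were higher, against 15.4% of all genes, and 0 were lower, against 14.3%. At an unadjusted p of 0.05, 26 were higher and 0 lower at 8 h, and DESeq2 called 18 higher and 0 lower. Both 8 h libraries lay above both 0 h libraries for 32 of 47 members, against 30.3% of all genes, and below them for 3, against 29.8%. Over all time points together, 16 members passed, against 27.7% of all genes. PLK1, CENPF and KIF23 were among them without a call at 8 h. NUF2, KIF18A, HMMR, PTTG1, BIRC5 and MKI67 were called at 8 h but did not pass over all times. The time contrasts of a line share its 0 h libraries and are not independent of each other.

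The 0 h libraries weighed on these counts. Most members, 36 of 47, were above the 0 h mean in replicate 1 and 11 were in replicate 2. Without T-47D 0 h replicate 2, 7 members were higher at 8 h, and without 8 h replicate 2 the number was 11. Leaving out any other T-47D library gave 16 to 22. At 4 h, the number higher was 0 without 4 h replicate 1, 1 without 0 h replicate 2, 5 without 4 h replicate 2, 6 without either 8 h library and 8 without 0 h replicate 1. At 2 h, 4 members were higher without 0 h replicate 1. Over all times, 7 passed without 2 h replicate 2 and 9 without 2 h replicate 1. TTK, BUB1B, KIF4A, TPX2, CDC20 and ANLN were higher at 8 h whichever of the 8 libraries was left out. Each of the other 13 lost the call in 1 to 4 of the 8 fits.

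The heat map of all members by library shows this course. In it, the T-47D columns turn from near 0 at 2 h to positive at 8 h across most roles, whereas the Ishikawa columns hold a few strongly negative rows.

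**Figure D2:**
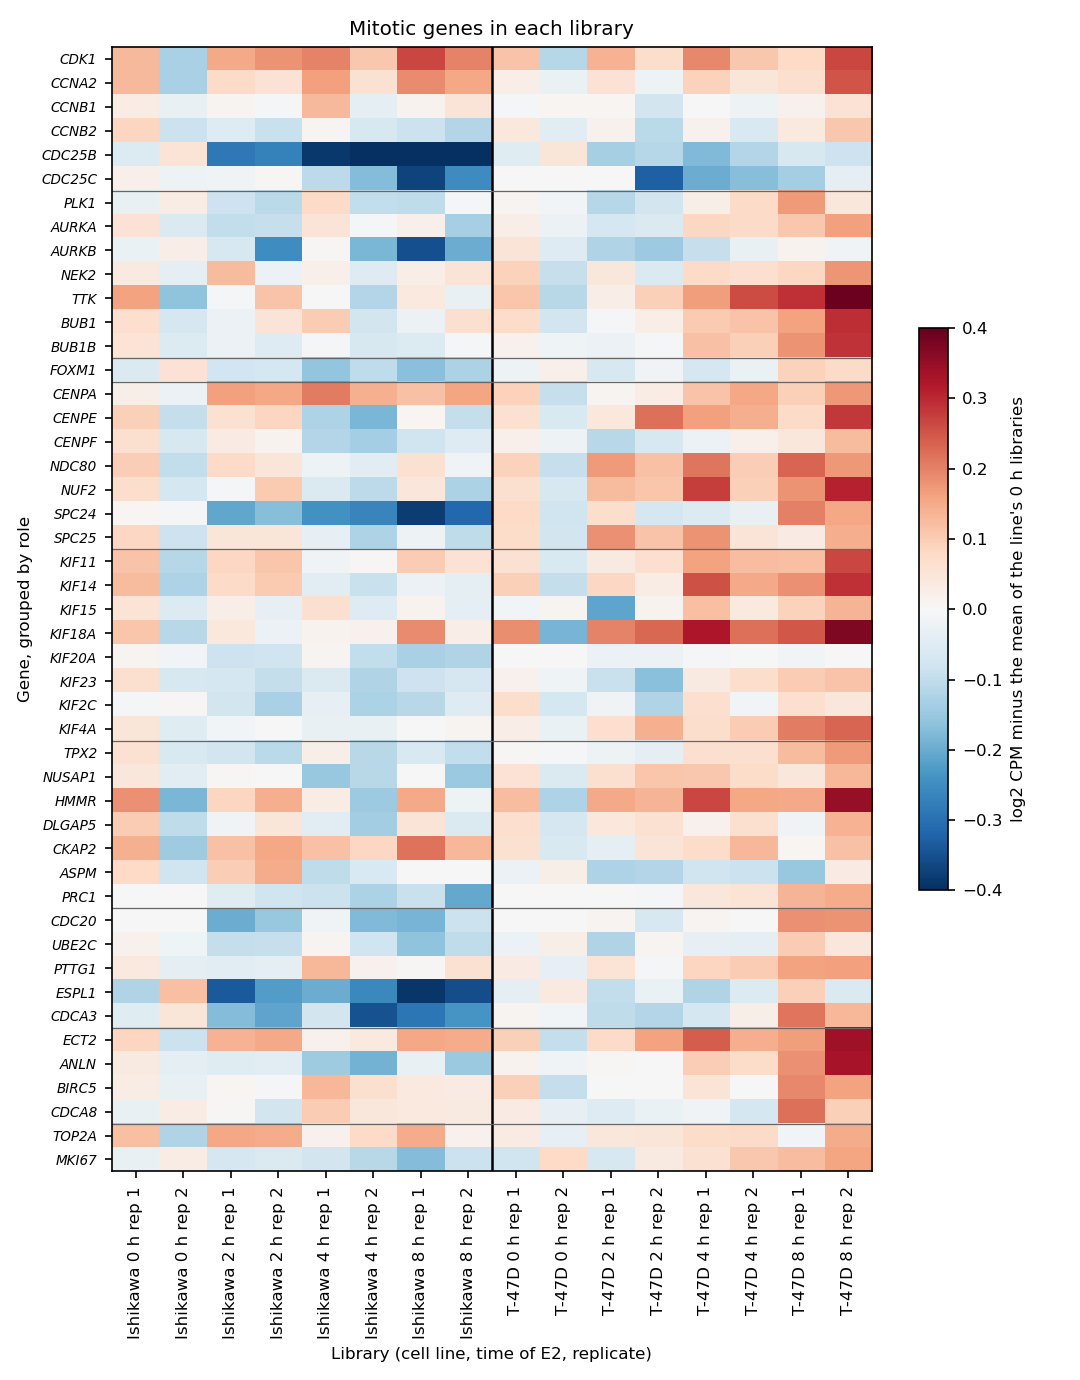
Log2 CPM of each of the 47 genes (rows, grouped by role with lines between roles) in each of the 16 libraries (columns), minus the mean of the 0 h libraries of the same line. Colour runs from -0.4 (blue) to 0.4 (red), with CDC25B, ESPL1 and SPC24 blue in late Ishikawa libraries and TTK, KIF18A and ECT2 red in late T-47D libraries.

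Among the cyclins, CDK1 and the CDC25 phosphatases, 0 of 6 passed in T-47D cells at 8 h by edgeR, with 2 at an unadjusted p of 0.05. CDK1, the kinase of mitotic entry, held 143 and 122 CPM in the 0 h libraries and 140 and 159 CPM in the 8 h libraries, so the groups overlapped (log2 fold change 0.17 ± 0.07, SE, adjusted p = 0.0670). CCNA2, the cyclin of S phase and G2, held 69.9 and 67.3 CPM in the 0 h libraries and 71.7 and 81.8 CPM in the 8 h libraries, with adjusted p = 0.0512. CCNB1 held 173 and 175 CPM in the 0 h libraries and 176 and 181 CPM in the 8 h libraries, with a 95% interval of -0.06 to 0.13 on the log2 scale. Both CDK1 and its main cyclin missed the threshold at 8 h, and whether they differ from the genes that passed was not tested. CDC25B was the only member to fall at 4 h, from 82.1 and 87.6 CPM to 75.0 and 78.2 CPM (log2 fold change -0.15 ± 0.05, SE, adjusted p = 0.0410), and stood at 81.1 and 80.1 CPM at 8 h. The 4 h call was lost in 5 of the 8 fits that each left out a library, with -0.10 without T-47D 0 h replicate 2 and -0.11 without 4 h replicate 1.

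The spindle checkpoint kinases rose. TTK, also called MPS1, held 34.8 and 29.8 CPM before E2, 32.9 and 34.4 after 2 h, 36.2 and 38.6 after 4 h, and 39.4 and 42.3 after 8 h. Its 4 h and 8 h libraries lay above both 0 h libraries, and the 8 h log2 fold change of 0.34 ± 0.07 (SE, adjusted p = 0.00186) was the highest of the members. BUB1B, which encodes the checkpoint protein BUBR1, held 67.5 and 66.1 CPM in the 0 h libraries and 75.7 and 81.6 CPM in the 8 h libraries (0.24 ± 0.05, adjusted p = 0.00176). BUB1 stood at 49.5 and 44.7 CPM and at 52.5 and 57.7 CPM (0.23 ± 0.06, adjusted p = 0.00946). The 8 h libraries of BUB1B and BUB1 did not overlap those at 0 h. The BUB1 call was lost without T-47D 0 h replicate 2 (0.16) and without 8 h replicate 2 (0.17). The spindle kinase AURKA rose by 0.14 ± 0.05, from 111 and 107 CPM to 118 and 122 CPM, and lost the call in 3 of 8 fits. PLK1, which acts from mitotic entry to cytokinesis, stood at 91.0 and 89.5 CPM and at 102 and 93.1 CPM and did not pass at 8 h (adjusted p = 0.126). AURKB and NEK2 also missed the threshold, so 4 of 7 kinases were higher. FOXM1, the forkhead factor of the G2/M genes, held 94.2 and 96.8 CPM in the 0 h libraries and 102 and 101 CPM in the 8 h libraries, with a log2 fold change of 0.08 ± 0.05 (adjusted p = 0.197).

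Of the 7 kinetochore and centromere genes, 1 was higher at 8 h, although all 7 had a positive log2 fold change. NUF2, a subunit of the NDC80 complex, held 26.8 and 24.5 CPM in the 0 h libraries and 29.0 and 31.7 CPM in the 8 h libraries (0.24 ± 0.08, adjusted p = 0.0248), without overlap, and lost the call without T-47D 0 h or 8 h replicate 2 (0.19 in each). Its partner NDC80 stood at 29.6 and 26.1 CPM and at 32.7 and 31.3 CPM (0.20 ± 0.07, adjusted p = 0.0508). CENPF, a large kinetochore protein of G2, stood at 471 and 458 CPM and at 479 and 507 CPM (0.09 ± 0.04, adjusted p = 0.117). These 3 kept their 8 h libraries above their 0 h libraries, but only NUF2 passed at 8 h. In the edgeR test over all time points together, CENPF passed (adjusted p = 0.0197), and NUF2 (0.101) and NDC80 (0.183) did not.

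Of the 8 kinesins, 2 were higher at 4 h and 4 at 8 h. KIF18A, which damps chromosome movements at metaphase, held 38.7 and 29.9 CPM before E2, 42.6 and 39.6 after 4 h, and 40.4 and 44.1 after 8 h. Its log2 fold change was 0.26 ± 0.09 (SE) at 4 h and 0.30 ± 0.09 at 8 h, and the 8 h call was lost without T-47D 0 h replicate 2, the lowest of its 8 libraries (0.13), and without 8 h replicate 2 (0.24). KIF14, a kinesin of cytokinesis, held 47.1 and 41.3 CPM before E2, 52.6 and 49.0 after 4 h, and 50.1 and 54.0 after 8 h (0.24 ± 0.07 at 8 h, adjusted p = 0.0121). The chromokinesin KIF4A held 53.6 and 51.6 CPM in the 0 h libraries and 60.7 and 61.9 CPM in the 8 h libraries (0.22 ± 0.05, adjusted p = 0.00367). KIF11, the motor that separates spindle poles, stood at 164 and 150 CPM and at 170 and 189 CPM (0.19 ± 0.05, adjusted p = 0.00988). None of these 4 overlapped between 0 h and 8 h. Without T-47D 0 h replicate 2, the 8 h call was lost for KIF14 (0.15) and KIF11 (0.14), as it was without 8 h replicate 2 (0.19 and 0.13). The 4 h calls of KIF18A and KIF14 were also lost without 0 h replicate 2 (0.09 and 0.12) or 4 h replicate 1 (0.21 and 0.16), and that of KIF18A without either 2 h library. KIF20A was flat, between 102 and 104 CPM in all 8 libraries, with a 95% interval of -0.10 to 0.09 at 8 h.

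Of the 7 spindle microtubule proteins, 3 were higher at 8 h. HMMR held 80.7 and 68.0 CPM in the 0 h libraries and 82.4 and 94.3 CPM in the 8 h libraries, a log2 fold change of 0.25 ± 0.07 (SE) whose call was lost without 0 h replicate 2 (0.13) and without 8 h replicate 2 (0.15). TPX2, which activates AURKA on the spindle, stood at 265 and 263 CPM and at 288 and 297 CPM (0.15 ± 0.04, adjusted p = 0.00783). PRC1, which bundles microtubules of the midzone, stood at 136 and 137 CPM and at 150 and 151 CPM (0.14 ± 0.04, adjusted p = 0.0161). The replicates of TPX2 and PRC1 lay close together and the groups did not overlap. The PRC1 call was lost without either 0 h library, with the value at 0.15.

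CDC20 rose late. It held 69.8 and 69.9 CPM before E2, 70.3 and 66.8 after 2 h, 70.3 and 69.9 after 4 h, and 79.4 and 79.2 after 8 h. The first 3 time points covered the same range and both 8 h libraries lay above all of them (0.18 ± 0.05, SE, adjusted p = 0.00800). PTTG1, the separase inhibitor securin, rose by 0.16 ± 0.05 (0.13 and not called without T-47D 0 h replicate 2). ESPL1, separase itself, did not pass (interval -0.10 to 0.14). This left 2 of the 5 genes of anaphase and the anaphase-promoting complex higher.

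All 4 genes of cytokinesis and chromosomal passengers were higher at 8 h. ANLN, the anillin scaffold of the cleavage furrow, held 303 and 298 CPM before E2, 301 and 300 after 2 h, 321 and 316 after 4 h, and 341 and 378 after 8 h. Its 4 h and 8 h libraries lay above every earlier one, and its 8 h log2 fold change of 0.26 ± 0.05 (SE) had the smallest adjusted p of the members, 2.71e-04. ECT2 held 306 and 268 CPM before E2, 339 and 317 after 4 h, and 322 and 363 after 8 h (0.19 ± 0.06 at 4 h and 0.25 ± 0.06 at 8 h). Survivin, encoded by BIRC5, and borealin, encoded by CDCA8, rose by 0.17 and 0.16 on the log2 scale. Without T-47D 0 h replicate 2, the 8 h calls of ECT2 (0.16), BIRC5 (0.09) and CDCA8 (0.13) were lost, and so was the 4 h call of ECT2 (0.10). ECT2 was also lost without 8 h replicate 2 (0.17) and, at 4 h, without 4 h replicate 1 (0.15). BIRC5 and CDCA8 were also lost without 8 h replicate 1 (0.16 and 0.10), and CDCA8 without either 2 h library. MKI67 held 298 and 334 CPM in the 0 h libraries and 344 and 352 CPM in the 8 h libraries (0.14 ± 0.05, adjusted p = 0.0465), and its call was lost in 4 of 8 fits, with 0.07 without T-47D 0 h replicate 1. TOP2A stood at 592 and 564 CPM and at 574 and 641 CPM, so its groups overlapped (interval -0.02 to 0.17).

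Few members passed in the steps between later time points. The median log2 fold change was 0.06 from 2 h to 4 h and 0.06 from 4 h to 8 h, and it was -0.00 from 0 h to 2 h. From 2 h to 4 h, KIF23, a kinesin of the central spindle, was the 1 member higher (0.18 ± 0.05, SE, adjusted p = 0.0441), against 1.94% of all genes. It held 89.6 and 87.4 CPM before E2, 83.1 and 78.9 after 2 h, and 90.8 and 92.9 after 4 h. Against 0 h, its 4 h log2 fold change was 0.05 and did not pass (adjusted p = 0.475). From 4 h to 8 h, CDC20 and ANLN were higher, by 0.18 and 0.17, against 2.09% of all genes. Leaving out either 2 h or either 4 h library left 0 in both steps, and leaving out either 8 h library left 1 in the later step. In 34 of 47 members, the log2 fold change against 0 h rose from 2 h to 4 h and again to 8 h. The share of all genes with such a course was not counted, and the members share libraries and are not independent.

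In Ishikawa cells, no such rise was seen. A few members were called lower, at 4 h and 8 h in shares near those of all genes. At 8 h, 1 member was higher (2.13%) and 6 were lower (12.8%), against 12.0% and 10.1% of 15787 genes. The median log2 fold change was -0.04 and 30 of 47 values were negative. At 2 h, 2 members (4.26%) were lower, against 1.74% of all genes. The same 2, CDC25B and ESPL1, were lower at 4 h, against 6.60%. No member was higher at 2 h or 4 h by edgeR or by DESeq2, with 3 and 1 at an unadjusted p of 0.05. Over all times together, 3 members passed, against 15.4% of all genes. With the 4 h and 8 h libraries as 1 late group, 1 member was higher (2.13%) and 6 were lower (12.8%), against 13.5% and 12.2%. Both 8 h libraries lay above both 0 h libraries for 6 members, against 30.0% of all genes, and below them for 15, against 30.6%. The summed member level was 7695 and 7259 CPM before E2, 7422 and 7429 after 2 h, 7343 and 7088 after 4 h, and 7287 and 7232 after 8 h, so every later level lay within or just below the 0 h pair. Leaving out Ishikawa 8 h replicate 1 left 2 members lower at 8 h, leaving out 0 h replicate 2 left 3, and leaving out 0 h replicate 1 gave 6 members higher. Without 0 h replicate 1, 7 members were also higher at 2 h and 3 at 4 h, and 10 passed over all times. In the late group, 1 member was lower without 0 h replicate 2 and 4 were higher without 0 h replicate 1. At 4 h, 1 was lower without either 2 h library or without 4 h replicate 2.

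CDC25B, the phosphatase that starts CDK1 activation, fell at every time. It held 169 and 183 CPM before E2, 144 and 146 after 2 h, 135 and 134 after 4 h, and 128 and 131 after 8 h. All 6 treated libraries lay below both 0 h libraries. The log2 fold change was -0.28 ± 0.06 (SE) at 2 h, -0.39 ± 0.06 at 4 h and -0.44 ± 0.06 at 8 h (adjusted p = 7.27e-05). ESPL1 held 104 and 123 CPM before E2, 89.7 and 97.0 after 2 h, 98.7 and 94.7 after 4 h, and 86.6 and 88.5 after 8 h, again with all 6 treated libraries lowest. Its log2 fold change at 8 h was -0.38 ± 0.07 (SE, adjusted p = 0.00221). The 2 h calls of both genes were lost without 0 h replicate 2 (-0.22 for CDC25B and -0.16 for ESPL1) or without either 2 h library. The 4 h value of ESPL1 was -0.23, and its call was lost in 5 of 8 fits, with -0.11 without 0 h replicate 2. Both genes were lower at 8 h whichever library was left out.

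SPC24 held 18.3 and 18.1 CPM before E2, 15.4 and 15.1 after 4 h, and 14.0 and 14.6 after 8 h (-0.35 ± 0.09, SE, at 8 h, adjusted p = 0.0116). CDC25C held 22.5 and 21.9 CPM in the 0 h libraries and 17.2 and 18.6 CPM in the 8 h libraries (-0.31 ± 0.08, adjusted p = 0.0162). AURKB, the kinase of the chromosomal passenger complex, stood at 46.9 and 48.7 CPM and at 37.4 and 41.6 CPM (-0.28 ± 0.09, adjusted p = 0.0306). CDCA3 stood at 43.0 and 46.0 CPM and at 36.4 and 37.8 CPM (-0.26 ± 0.08, adjusted p = 0.0358). In all 4, the 8 h libraries lay below those at 0 h. The 8 h call was lost in 5 of 8 fits for CDCA3 (-0.21 without 0 h replicate 2), in 3 for AURKB (-0.20 without 8 h replicate 1), in 2 for CDC25C (-0.25 without 8 h replicate 1) and in 1 for SPC24 (-0.31 without 8 h replicate 1).

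CDK1 was the single member called higher in Ishikawa cells. It held 119 and 99.6 CPM before E2, 121 and 123 after 2 h, 125 and 117 after 4 h, and 131 and 125 after 8 h. The 0 h replicates lay far apart, and the 8 h log2 fold change of 0.23 ± 0.07 (SE, adjusted p = 0.0385) was 0.11 without 0 h replicate 2 and 0.37 without replicate 1. The call was lost in 5 of the 8 fits that each left out a library. In the late group, CDK1 was higher by 0.19 and FOXM1 lower by 0.14 ± 0.05 (log2 fold change -0.14, adjusted p = 0.0372). All 4 late libraries of FOXM1, at 230 to 241 CPM, lay below its lower 0 h library. Both late-group calls were lost in 6 of 8 fits, with 0.07 for CDK1 and -0.08 for FOXM1 without 0 h replicate 2. The late-group call of ESPL1 was also lost without that library, at -0.18, and that of CDC25C in 6 of 8 fits.

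The remaining representative genes did not pass in Ishikawa cells. At 8 h, the log2 fold change was 0.17 for CCNA2, 0.03 for CCNB1, -0.05 for PLK1 and for AURKA, and 0.02 for BUB1 and for NDC80. It was -0.07 for CENPF, 0.08 for KIF11 and TOP2A, -0.08 for TPX2, -0.09 for ANLN and -0.13 for CDC20 and MKI67. With a median SE of 0.065, the 95% interval for CCNB1 ran from -0.10 to 0.16 and that for BUB1 from -0.13 to 0.17, so both intervals hold the T-47D median of 0.14.

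**Figure D3:**
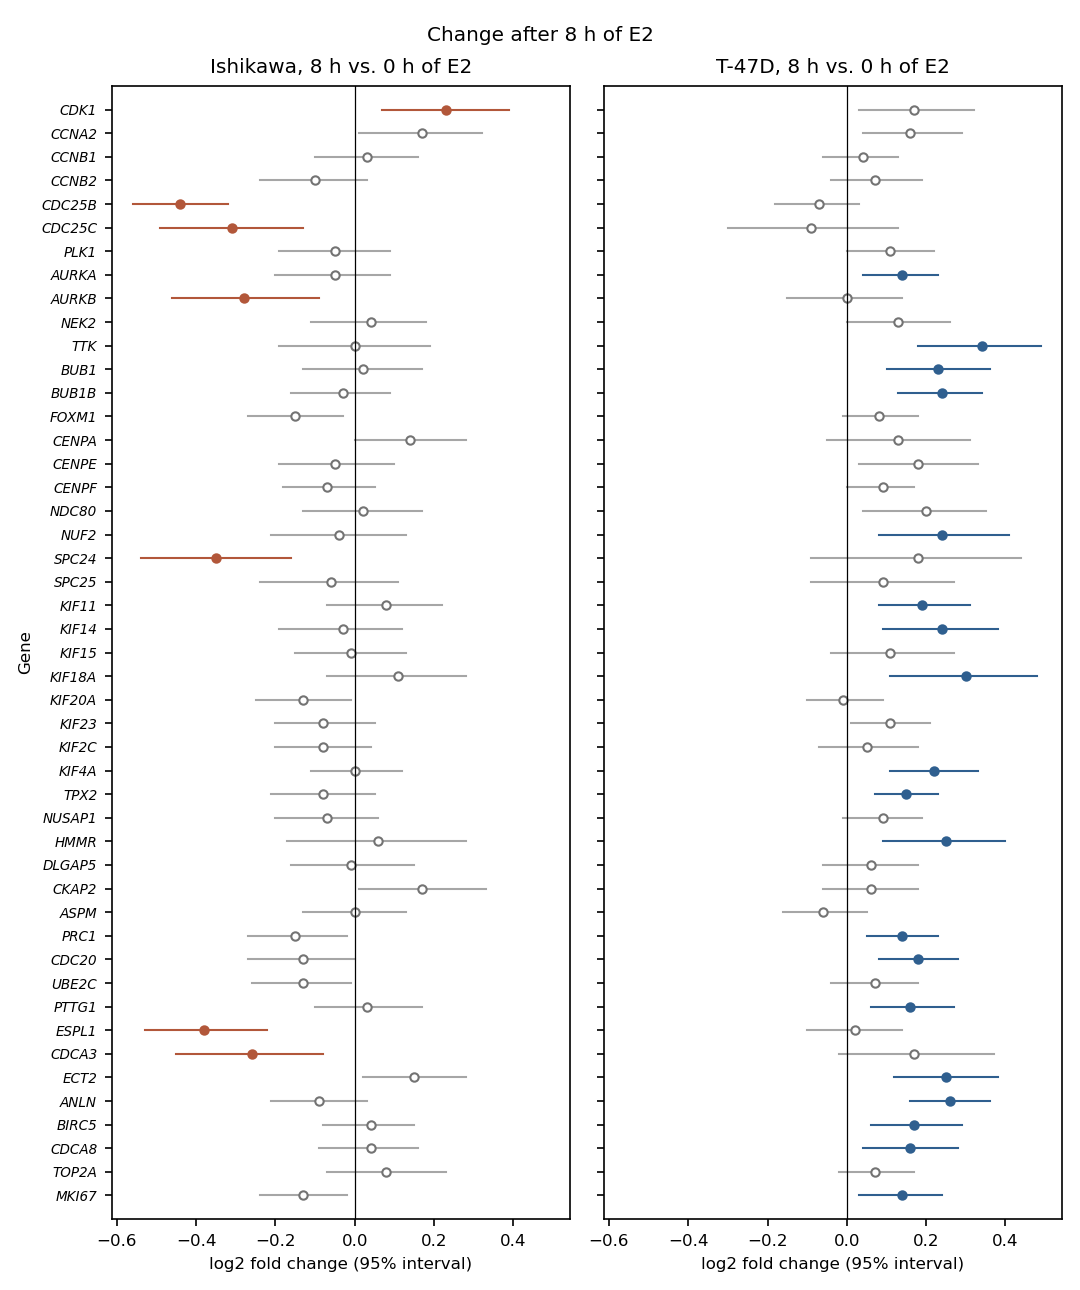
Log2 fold change at 8 h against 0 h with its 95% interval for each of the 47 genes, in Ishikawa cells (left) and T-47D cells (right). Filled points passed an adjusted p of 0.05, with 1 higher and 6 lower in Ishikawa cells and 19 higher in T-47D cells.

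No member was called in both lines at 8 h, 19 were called in T-47D cells alone and 7 in Ishikawa cells alone. Of the 14307 genes tested in both lines, 11.2% were called in both, 19.5% in T-47D cells alone and 11.6% in Ishikawa cells alone. The difference between the lines was itself tested as the interaction of line and time. At 2 h, 0 members differed by edgeR and by DESeq2, with 3 at an unadjusted p of 0.05, against 2.67% of 17090 genes. At 4 h, 2 members had a higher response in T-47D cells, against 3.21%, and at 8 h, 10 did, against 5.32%. None had a lower one at 4 h or 8 h by either tool or at an unadjusted p of 0.05. Of the 47 differences at 8 h, 41 were positive, with a median of 0.18 on the log2 scale.

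The 10 members reached this difference in several ways. Of the 4 that were lower in Ishikawa cells at 8 h, SPC24 differed by 0.52 ± 0.14 (SE), CDCA3 by 0.44 ± 0.13, ESPL1 by 0.39 ± 0.10 and CDC25B by 0.37 ± 0.07. ANLN, which rose in T-47D cells, differed by 0.34 ± 0.08, from a log2 fold change of -0.09 in Ishikawa cells to 0.26 in T-47D cells, and BUB1B, at -0.03 and 0.24, by 0.27 ± 0.08. CDC20 differed by 0.32 ± 0.08, PRC1 by 0.28 ± 0.07 and MKI67 by 0.27 ± 0.07, each with a negative value in Ishikawa cells that did not pass and a rise in T-47D cells. FOXM1, at -0.15 and 0.08, passed in neither line and differed by 0.23 ± 0.07, a call lost in 15 of 16 fits that each left out a library. ANLN and CDC25B were the 2 members at 4 h, each with 0.26 and with the call lost in 11 and 12 of 16 fits, and the number at 4 h was 0 without any one of the 2 h or 4 h libraries of either line, 4 without Ishikawa 0 h replicate 2, and 1 without any other library but those of T-47D at 8 h. Only CDC25B and ANLN kept the call at 8 h whichever of the 16 libraries was left out, while BUB1B lost it in 9 fits (0.18 without Ishikawa 0 h replicate 1), CDCA3 in 8, MKI67 in 7, SPC24 in 6, ESPL1 in 4, CDC20 in 2 and PRC1 in 1. The number called was 3 without Ishikawa 8 h replicate 1, 5 without Ishikawa 8 h replicate 2, and 5 without either T-47D 0 h library or T-47D 8 h replicate 1. It was 6 without Ishikawa 2 h replicate 1 or T-47D 4 h replicate 1.

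Fold changes moved with the GC content of the transcripts. Over the 47 members, the Spearman correlation of transcript GC content with the log2 fold change was -0.82 for the 2 h and -0.64 for the 8 h contrast of Ishikawa cells. It was -0.33 for the 8 h contrast of T-47D cells. Over all genes, it was -0.35, -0.35 and -0.21. Among the members, the T-47D contrasts gave -0.60 for 2 h and -0.67 for 4 h, and Ishikawa cells gave -0.26 for 4 h. The difference between lines correlated positively with GC content for 8 h, with 0.41 over the members and 0.13 over all genes. For the earlier times, this difference gave 0.36 (2 h) and -0.26 (4 h) over the members. These are descriptions over genes that share libraries. The 6 members lower in Ishikawa cells at 8 h had a median GC content of 54.9%, and the 47 members had 43.1%. Members whose 8 h response differed between lines had a median of 53.7%, and those not called in that test had 41.9%. With an offset for GC content in each library, chosen after seeing the data, T-47D cells at 8 h had 18 members higher and 1 lower, ASPM. Of all genes, 16.8% were then higher and 15.8% lower. The median log2 fold change of the members was 0.12. Of the 19 calls, 16 were kept. NUF2 (0.16), KIF18A (0.17) and HMMR (0.12) no longer passed, and PLK1 (0.16) and FOXM1 (0.13) were higher. Ishikawa cells at 8 h then had 0 members higher and 10 lower, with a median of -0.10, where 10.9% of all genes were higher and 8.83% lower. CDC25B (-0.32), CDC25C (-0.33), SPC24 (-0.28) and ESPL1 (-0.27) remained lower, ANLN became lower at -0.21, as did CENPE, CENPF, KIF14, KIF23 and ASPM, and CDK1, AURKB and CDCA3 no longer passed. The offset turned the sign of 9 members in Ishikawa cells, BUB1, NDC80, KIF11 and PLK1 among them, and of 4 in T-47D cells, none of which passed with or without it. The part of library preparation in this relation was not tested.

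**Figure D4:**
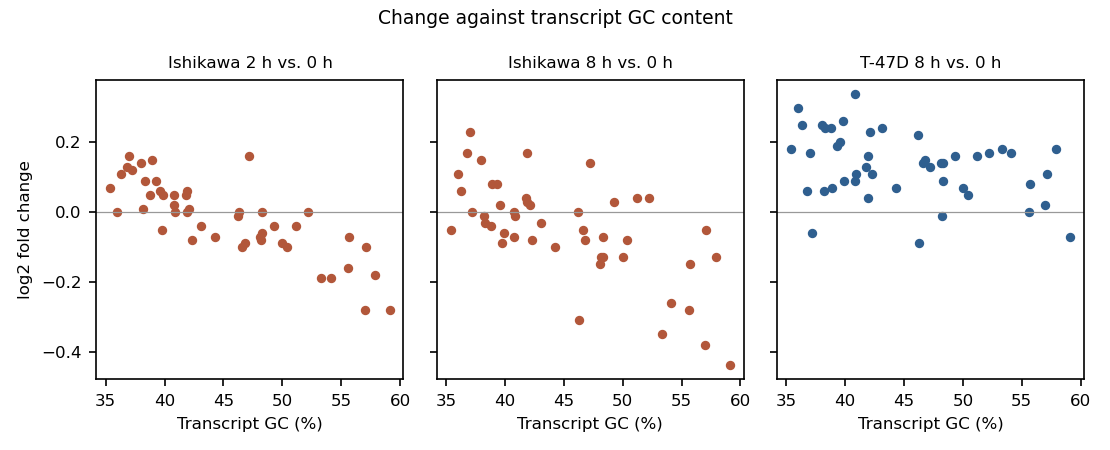
Log2 fold change of each of the 47 genes (y axis) against the GC content of its transcript in percent (x axis), for Ishikawa cells at 2 h and 8 h and T-47D cells at 8 h. The points slope downward, with a Spearman correlation of -0.82, -0.64 and -0.33 from left to right.

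The members with a CHR match in the promoter window and those without can be set side by side. In T-47D cells at 8 h, 13 of 29 with TTTGAA and 2 of 12 without were higher, where 15.4% of all genes were. The median log2 fold changes of those with and without it were 0.14 and 0.09. The 6 members without a promoter entry are not in these counts, and AURKA, TTK, TPX2 and BIRC5 among them were higher. In Ishikawa cells at 8 h, 3 of 29 and 3 of 12 were lower, where 10.1% of all genes were, and the medians were -0.03 and -0.01. As the promoters printed above show, ESPL1 holds the element and fell in Ishikawa cells, as did SPC24 and CDC25B, which lack it. No test was made of these counts, and the shares called among all genes with and without TTTGAA were not counted.

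Other genes of the cell cycle give the setting. A list of 81 further mitotic genes had 48 higher (59.3%) and 2 lower (2.47%) in T-47D cells at 8 h, against 15.4% and 14.3% of all genes. Their median log2 fold change was 0.19. MAD2L1, a checkpoint protein that binds CDC20, rose by 0.60 ± 0.08 (SE), and the centromere genes CENPU and CENPQ rose by 0.49 and 0.46. In Ishikawa cells at 8 h, 5 of the 81 were higher (6.17%) and 11 lower (13.6%), against 12.0% and 10.1% of all genes. The median was 0.02. SGOL2, a guardian of centromeric cohesion, rose by 0.40, while TROAP and the cytokinesis kinase CIT fell, with log2 fold changes of -0.47 and -0.43.

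Genes of G1/S and DNA replication, which act earlier in the cycle, rose in T-47D cells. Of 45, 40 were higher (88.9%) and 0 lower at 8 h, against 15.4% and 14.3% of all genes. The median log2 fold change was 0.41, and all 45 values were positive. DTL, a substrate receptor that degrades the licensing factor CDT1, held 53.0 and 51.5 CPM in the 0 h libraries and 91.9 and 95.2 CPM in the 8 h libraries (0.84 ± 0.05, SE). The phosphatase CDC25A rose by 0.82 ± 0.08 and the replication factor MCM10 by 0.78 ± 0.06. Each of these 3 changes is larger than that of any of the 47 mitotic members, of which the highest was TTK at 0.34. In Ishikawa cells at 8 h, 1 of the 45 was higher (2.22%) and 6 were lower (13.3%), against 12.0% and 10.1% of all genes. POLE, RFC4 and E2F1 were among the lower, at -0.34, -0.26 and -0.25, and the median was -0.03.

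**Figure D5:**
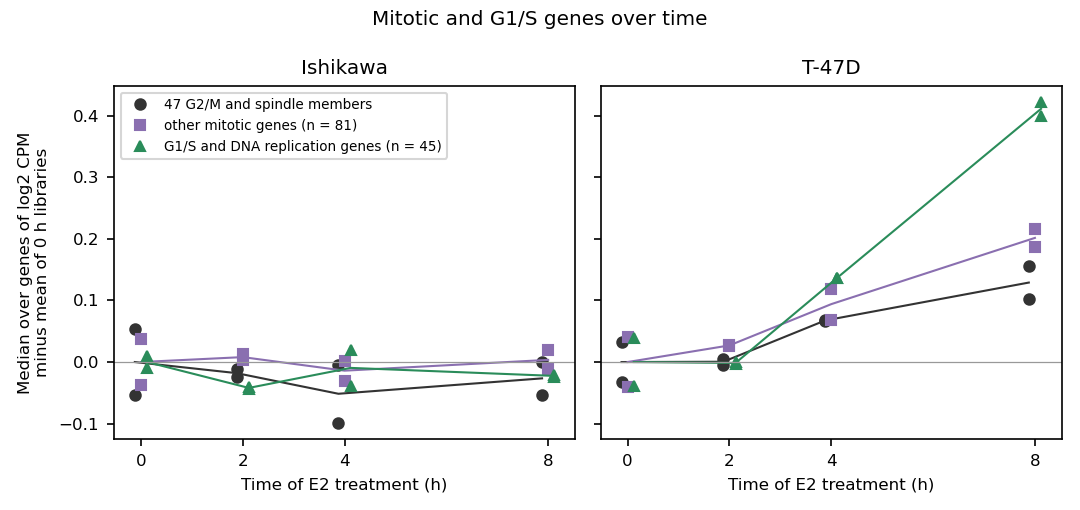
Median over the genes of a list of log2 CPM minus the mean of the line's 0 h libraries (y axis) against hours of E2 (x axis), for the 47 mitotic members, 81 other mitotic genes and 45 G1/S and replication genes. Points are libraries and lines join group means. In T-47D cells at 8 h, the members stand at 0.102 and 0.156 and the G1/S genes higher, while all lists stay near 0 in Ishikawa cells.

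Of the regulators of these promoters, more were called in T-47D than in Ishikawa cells. Of 15 DREAM, MuvB and NF-Y genes, 5 were higher and 2 lower in T-47D cells at 8 h and 1 was higher and 1 lower in Ishikawa cells. As shares, these are 33.3% and 13.3% in T-47D cells, where 15.4% and 14.3% of all genes were called, and 6.67% and 6.67% in Ishikawa cells, where 12.0% and 10.1% were. In T-47D cells, E2F5 rose by 0.54 ± 0.09 (SE), the pocket protein RBL1 by 0.50 ± 0.08 and the MuvB subunit LIN9 by 0.39 ± 0.09, and the NF-Y subunit NFYB fell, with a log2 fold change of -0.44 ± 0.05. MYBL2 held 232 and 224 CPM in the 0 h libraries and 245 and 239 CPM in the 8 h libraries and did not pass (0.09 ± 0.04, adjusted p = 0.136), nor did LIN54 (0.16) or E2F4 (-0.02). In Ishikawa cells, E2F5 rose by 0.34 and TFDP2 fell (-0.23), while LIN9 (0.19), LIN54 (-0.04), MYBL2 (-0.08) and E2F4 (-0.02) did not pass. Of 16 subunits and partners of the anaphase-promoting complex, 4 were higher (25%) and 0 lower in T-47D cells at 8 h. There, 15.4% of all genes were higher and 14.3% lower. ANAPC7 stood at 0.43, UBE2S at 0.32 and ANAPC5 at 0.23. In Ishikawa cells, ANAPC13 (0.36) and CDC27 (0.19) were higher and the G1 activator FZR1 (-0.35) lower. These were 12.5% and 6.25% of the 16, where 12.0% of all genes were higher and 10.1% lower.

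Some member counts may include reads of neighbours. On GRCh37, 14 members share exon bases with another annotated gene, 3 of them over more than 10% of their exon length. PRC1 shares 34.3% with its antisense gene PRC1-AS1, FOXM1 shares 15.9% with ITFG2 and CDCA3 shares 11.3% with GNB3. The libraries were directional, but whether the counting used strand is not stated, so the reads of these overlaps cannot be assigned here.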

How the data were processed

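RNA-seq of 16 libraries was used, with 2 libraries at each of 4 times in each line. The authors mapped reads with HISAT2 on hg19, used SAMtools, and counted reads per gene of the UCSC Known Genes with featureCounts. The deposited values are raw, unnormalized counts in a separate table for each line. Versions, the strand setting and the handling of read pairs are not given in the sources used here. Even numbers made up 71.2% to 74.6% of counts from 1 to 10, so a count need not be 1 independent fragment.

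edgeR 4.0.16 in R 4.3.3 was run with filterByExpr, TMM scaling and the quasi-likelihood test, with Benjamini-Hochberg adjusted p called at 0.05. Time was a factor of 4 levels within each line. Differences between lines were fitted over all libraries together. Tests ran over all 15787 (Ishikawa), 15594 (T-47D) or 17090 (joint) genes. CPM were scaled by TMM, and a prior count of 2 was added for log2 CPM. Each SE was derived from the fold change and its F statistic. Biological coefficients of variation were 6.45% and 5.02%. Replicates differed by more than counting noise in every pair (chi-square per gene 3.60 to 10.8). The scripts were tested on simulated data.

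The members and lists were chosen with earlier results of these data known. Values are given for 15 representatives, for up to 10 called members per contrast by size, for members that differed between lines, and for up to 3 called genes of each other list, with 4 regulators in any case. Other members are named to complete a count. Annotation was GENCODE (GRCh37), and promoters were from RefSeq (GRCh38.p14). Alternatives were DESeq2 1.42.0, RLE scaling, other filters and thresholds, a replicate block, fits of only the times compared, and leaving out each library. The GC offset, counts divided by 2, and, for the differences between lines, the late Ishikawa libraries as 1 group were chosen after seeing the data.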

Additional observations from a re-analysis of the deposited data

Results flagged for a closer look

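The response to E2 differed between the lines by the interaction test in edgeR for 10 members at 8 h. The T-47D minus Ishikawa log2 fold change was 0.52 for SPC24, 0.44 for CDCA3, 0.39 for ESPL1, 0.37 for CDC25B, 0.34 for ANLN, 0.32 for CDC20, 0.28 for PRC1, 0.27 for BUB1B, 0.27 for MKI67 and 0.23 for FOXM1. At 4 h, it was 0.26 for ANLN and 0.26 for CDC25B.

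Among the 4 late Ishikawa libraries, KIF18A stood apart at 51.2 CPM in 8 h replicate 1, where the other 3 held 45.3, 45.4 and 45.8 CPM. CDCA8 stood apart at 105 CPM in 4 h replicate 1, where the other 3 held 101 CPM each. Chance alone flags about 1 in 20 such groups, and 47 members were examined.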

How the results depend on the processing

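The alternatives moved counts of members called more often than directions. Alternatives were computed for the genes called in a contrast and, at 8 h, for a few representatives. Of their 1097 values, 854 kept direction and side of the threshold, 227 lost the call, 10 gained it and 6 turned sign. Among these genes, the sign turned for CCNB1 and TOP2A at 8 h with the GC offset, to -0.05 and -0.05 in Ishikawa and -0.01 and -0.02 in T-47D cells, and for TOP2A when each library was left out, from -0.03 (without Ishikawa 0 h replicate 2) to 0.21 in Ishikawa and from -0.00 (without T-47D 8 h replicate 2) to 0.15 in T-47D cells. None of the values that turned sign passed the test. Over all 47 members, the GC offset turned 9 signs at 8 h in Ishikawa and 4 in T-47D cells. Where a count moved, the cause was not tested.

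In T-47D cells, the 19 members higher at 8 h were 12 when only the times compared were fitted, 9 at an adjusted p of 0.01, and 7 to 22 when each library was left out, with 0 to 1 lower. The 3 higher at 4 h were 5 with DESeq2, RLE scaling, counts divided by 2 or at least 10 counts in every library, 8 with no filter, 1 with the GC offset or only the times compared, 0 at 0.01, 7 at 0.1, and 0 to 8 without each library. The 1 lower at 4 h was 0 with no filter, with only the times compared and at 0.01, and 0 to 1 without each library. At 2 h, no filter gave 2 higher, the GC offset 3 lower, and leaving out libraries 0 to 4 higher and 0 to 1 lower. From 2 h to 4 h, the 1 higher was 3 with the GC offset or only the times compared, 0 at 0.01, 2 at 0.1, and 0 to 1 without each library. From 4 h to 8 h, the 2 higher were 4 with the GC offset, 0 with only the times compared, 1 with RLE scaling, 0 at 0.01, and 0 to 3 without each library. At 8 h, the GC offset gave 1 lower. Over all times, the 16 were 25 with no filter, 6 at 0.01, and 7 to 19 without each library.

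In Ishikawa cells, the GC offset gave 1 lower at 2 h, 5 lower at 4 h, 0 higher and 10 lower at 8 h, 7 over all times and 15 lower in the late group. Only the times compared gave 1 lower at 2 h, 1 lower at 4 h, 0 higher at 8 h and 0 higher in the late group. No filter gave 7 over all times. The late group had 2 higher with DESeq2 and 0 with at least 10 counts in every library, and used for 4 h it gave 1 higher and 6 lower. An adjusted p of 0.01 gave 1 lower at 2 h, 1 lower at 4 h, 0 higher and 2 lower at 8 h, 1 over all times, and 0 higher and 3 lower in the late group. An adjusted p of 0.1 gave 1 higher and 4 lower at 4 h, 2 higher at 8 h and 2 higher in the late group. Without each library, 0 to 7 were higher and 0 to 2 lower at 2 h, 0 to 3 higher and 1 to 3 lower at 4 h, 0 to 6 higher and 2 to 6 lower at 8 h, 2 to 10 over all times, and 0 to 4 higher and 1 to 8 lower in the late group.

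The 10 differences between lines at 8 h were 2 with only the times compared, 2 at 0.01, and 3 to 9 without each library, with 0 to 1 lower. The 2 at 4 h were 0 with RLE scaling, only the times compared or 0.01, 1 with the late group, and 0 to 4 without each library. At 2 h, the GC offset gave 1 lower and leaving out libraries 0 to 1.

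Over all genes, libraries of the same replicate number showed no strong shared shift. Correlations of same-numbered deviations ran from -0.115 to 0.0595, and 0 of 6 pairs in each line exceeded 0.1. Over the members alone, they ran from -0.391 (T-47D 0 h with 8 h) to 0.606 (Ishikawa 0 h with 8 h). With 2 libraries per group, these values cannot show whether same-numbered libraries were handled together. With the replicate number as a block, T-47D cells had 20 higher at 8 h, 1 at 4 h, 0 from 2 h to 4 h and 0 from 4 h to 8 h, Ishikawa cells had 1 higher and 6 lower at 8 h, and the lines differed for 1 member at 4 h and 11 at 8 h. With 2 libraries per group and a median SE of 0.055 to 0.065, changes of the usual size here lie near the limit of what the depth and spread can show.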
